A study of Mus musculus with 2 samples.

Results

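The 35 genes described here carry out glycolysis or answer low oxygen. They are a fixed list of symbols, found as 35 of the 27998 gene rows of each count matrix: 17 glycolytic enzymes, 4 sugar and lactate transporters, 3 regulators of glycolytic flux and 11 genes of the hypoxia response. They were followed across marker-defined cell classes and across 2 droplet libraries of single cells from the mouse retina at day 8 after birth. The library called DKO came from α-Cre; Rbf/f; P107-/- mice, a genotype the labels call tumor-prone. The library called DKO_Skp2het came from α-Cre; Rbf/f; P107-/-; Skp2+/- mice, which the labels call tumor-resistant. Both groups therefore lack p107 in every cell and lose Rb where the α-Cre driver is active, and only the peripheral part of the retina, where that driver is expressed, was dissected. There was 1 library per genotype, and how many mice were pooled is not given in the sources used here. No difference below has a replicate check, no p-value is given, and every interval is a 95% interval that covers counting error only.

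Glycolysis splits glucose into pyruvate in the cytosol, and lactate dehydrogenase turns pyruvate into lactate when it is not sent to the mitochondria. The retina is known for producing lactate even when oxygen is present, with photoreceptors as heavy glucose users and Müller glia as their metabolic partners. When oxygen is low, prolyl hydroxylases stop marking HIF-1α for destruction, and the HIF complex then binds genes of glucose uptake, glycolysis, blood vessel growth and mitochondrial clearance.

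The HIF complex is known to bind the short core ACGTG or GCGTG. The 250 bases before the start site of 5 members are shown because their levels carry the contrasts described below: Eno1 and Eno2, whose shares differ between glia and neurons, Ldha, the most abundant dehydrogenase in photoreceptors, and Bnip3 and Ankrd37, hypoxia response genes that differ between classes. Sequences are from RefSeq, build GRCm38.p6, 5′ to 3′ in the direction of the gene. Capitals mark ACGTG or GCGTG on either strand, which reads CACGT or CACGC when on the other strand, and overlapping matches count as 1 site. Where a gene has several start sites, the one with the most sites is shown.
Eno1, chr4:150236947-150237196, plus strand: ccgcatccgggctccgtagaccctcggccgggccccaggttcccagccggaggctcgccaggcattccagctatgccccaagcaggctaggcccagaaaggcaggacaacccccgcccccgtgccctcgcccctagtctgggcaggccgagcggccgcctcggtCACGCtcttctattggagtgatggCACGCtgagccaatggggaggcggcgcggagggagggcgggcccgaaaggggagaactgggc
Eno2, chr6:124769674-124769923, minus strand: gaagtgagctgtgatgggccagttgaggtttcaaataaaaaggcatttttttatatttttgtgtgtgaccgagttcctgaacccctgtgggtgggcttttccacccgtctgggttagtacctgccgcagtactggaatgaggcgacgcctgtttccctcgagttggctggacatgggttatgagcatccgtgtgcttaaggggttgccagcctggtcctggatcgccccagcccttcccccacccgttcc
Ldha, chr7:46845554-46845803, plus strand: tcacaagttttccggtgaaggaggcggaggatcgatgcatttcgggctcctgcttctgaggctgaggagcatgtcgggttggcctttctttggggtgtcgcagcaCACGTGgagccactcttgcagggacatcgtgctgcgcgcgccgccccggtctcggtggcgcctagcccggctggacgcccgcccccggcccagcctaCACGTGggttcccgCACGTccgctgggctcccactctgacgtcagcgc
Bnip3, chr7:138909507-138909756, minus strand: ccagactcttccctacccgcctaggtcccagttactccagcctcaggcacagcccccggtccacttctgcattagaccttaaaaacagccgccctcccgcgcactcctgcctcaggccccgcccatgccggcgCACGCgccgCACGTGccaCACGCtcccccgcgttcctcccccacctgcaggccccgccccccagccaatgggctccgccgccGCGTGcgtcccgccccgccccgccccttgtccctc
Ankrd37, chr8:45999851-46000100, minus strand: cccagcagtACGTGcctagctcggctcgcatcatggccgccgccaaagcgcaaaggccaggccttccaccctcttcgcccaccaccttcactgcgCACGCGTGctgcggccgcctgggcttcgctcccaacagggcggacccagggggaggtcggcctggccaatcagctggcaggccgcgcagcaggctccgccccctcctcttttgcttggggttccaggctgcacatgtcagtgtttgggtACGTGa
Bnip3 held 4 sites, Ldha and Ankrd37 held 3 each and Eno1 held 2, while Eno2 had none in this window. Promoters were found for 34 members, with Slc2a3 missing from the table. At least 1 site was present in 31 of the 34 at some start site, and Gpi1, Tpi1 and Eno2 had none. Of all 27025 genes in the table, 41.5% had such a site at a start. These are letter matches that say nothing about binding, and base composition was not matched.

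The DKO library kept 3515 cells and the DKO_Skp2het library 4978, with medians of 4866 and 3800 unique molecular identifiers (UMIs) per cell. The lowest kept cell also differed, with 3420 UMIs in DKO and 2387 in DKO_Skp2het. Only 30 barcode sequences occurred in both libraries. Dividing cells, called from 26 core proliferation genes, made up 55.8% and 43.7% of cells. At or above the lowest DKO depth, 3081 DKO_Skp2het cells remained, and 1527 of them were dividing. The part of the unequal lower limits in cell make-up was not tested. Members held 128872 UMIs in DKO and 146859 in DKO_Skp2het, 0.552% and 0.618% of the totals. Levels are counts per summed UMIs of a class on the usual CPM scale, and since the chemistry tags transcript 3′ ends they need no length correction. Near-identical 3′ ends elsewhere in the annotation make some members uncertain, since reads could be split or lost: Gapdh had 95 such copies. Copies with a row of their own held little, at most 1.67% of the UMIs of the member, for Eno1 and its copy Eno1b. Pgk1, which makes the first ATP of the pathway, stood at only 13.4 and 13.1 CPM while its neighbours in the pathway, Gapdh and Pgam1, stood at 1318 and 393 CPM in DKO. Pgk1 had 0 near-identical copies in the annotation, and sequence outside the annotation was not searched. That gap is uncertain and its cause was not tested.

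Of 32 clusters, 20 were named into 10 classes from fixed markers, and 12 stayed unnamed with 34.9% of DKO and 44.2% of DKO_Skp2het cells. The members took no part in the clustering. Rod-like cells (149 and 216) had all 10 rod markers past 2-fold. Cone-like cells (36 and 60) had all 10 cone markers but also rod markers at rod-like levels, such as the photoreceptor nuclear receptor Nr2e3 at 1937 and 2065 CPM. Müller glia-like cells (436 and 640) came from 2 clusters: cluster 16 (40 and 82 cells) had all 12 Müller glia markers past 2-fold, and the larger cluster 1 (396 and 558) had 8. Counts of members, enzyme sums and isoform shares were therefore also taken in cluster 16 alone, a check chosen after the data had been seen. Of 180 values of single genes and shares that involve this class, 93 moved beyond their counting interval in cluster 16 alone. Genes known to answer tissue dissociation summed to 9374 and 10097 CPM in Müller glia-like cells against 4157 and 3474 CPM in rod-like cells, and their part in the differences between these classes was not tested.

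**Figure D1:**
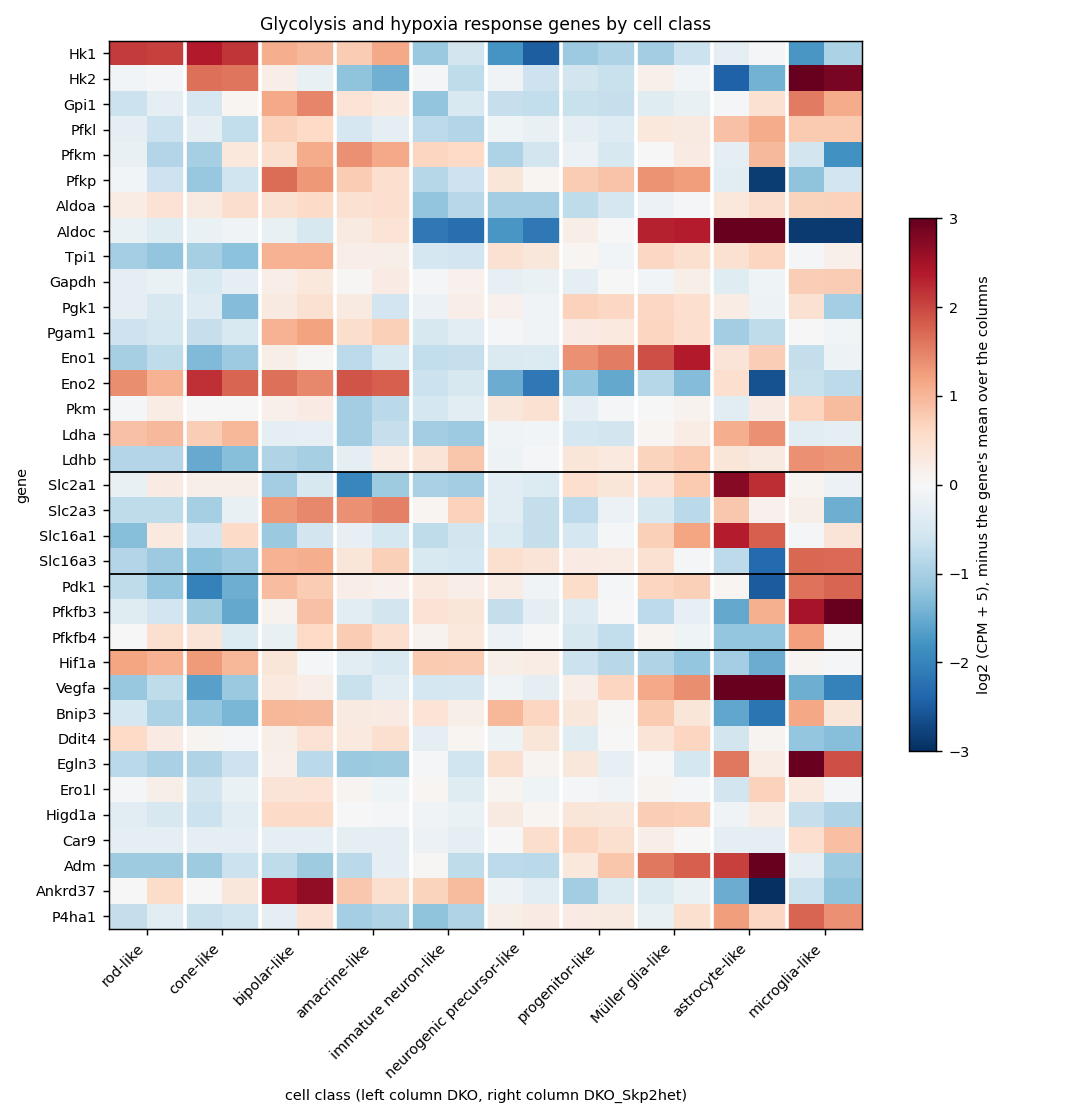
Level of the 35 genes (rows) in 10 cell classes (column pairs, DKO left and DKO_Skp2het right) as log2 of CPM plus 5, minus each gene's mean over the columns. Red is above and blue below the gene's mean, and black lines part the enzymes, transporters, flux regulators and hypoxia response genes. Hk1 and Eno2 are red in rod-, cone-, bipolar- and amacrine-like cells, Eno1 in Müller glia- and progenitor-like cells, and Aldoc and Vegfa in Müller glia- and astrocyte-like cells.

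The summed level of the 17 enzymes was highest, among classes with at least 100 cells in each library, in bipolar-like cells in DKO and in Müller glia-like cells in DKO_Skp2het. It stood at 6600 CPM (6429 to 6774) and 6969 CPM (6791 to 7150) in bipolar-like cells, and at 6512 CPM (6402 to 6624) and 7367 CPM (7267 to 7467) in Müller glia-like cells. Rod-like cells had 4819 and 5195 CPM, and immature neuron-like cells had the lowest sums with 3568 and 4021 CPM. The intervals of bipolar- and Müller glia-like cells overlapped in DKO, so their order there is uncertain. Both classes stood above rod-like and immature neuron-like cells in both libraries. The 2 Müller glia-like clusters lay on either side of bipolar-like cells in both libraries, cluster 16 at 8823 and 10244 CPM and cluster 1 at 6258 and 6845 CPM. In DKO_Skp2het the interval of cluster 1, 6740 to 6951 CPM, overlapped that of bipolar-like cells. Over all 10 named classes, those under 100 cells included, 27 of the 35 members had the same highest class in both libraries. The share of all genes was not taken.

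Rod-like and Müller glia-like cells differed in which glycolytic genes were abundant. Müller glia-like cells had more Eno1, Aldoc, Tpi1, Pgam1, Pfkp and Ldhb, rod-like cells had more Hk1 and Eno2, and Pkm, the pyruvate kinase that ends the pathway, was near 500 to 600 CPM in both. Of 31 members with at least 50 UMIs over both classes, 3 were past 2-fold higher in rod-like cells in both libraries and 12 were past 2-fold lower, where a fold compares CPM plus 5. Over all 10114 genes measured, 11.4% were higher and 13.7% lower by the same rule. The median log2 difference of the members, rod-like minus Müller glia-like, was -0.60 in DKO and -0.89 in DKO_Skp2het, against 0.02 and -0.03 over all genes measured. In cluster 16 alone as the glial side, 3 of 26 measured members were higher and 13 lower, and the share of all genes was not taken. Hk1, Eno2 and Hif1a were again the higher ones. Pgam1 was no longer past 2-fold, Adm and Slc16a3 fell below 50 UMIs, and Pfkl, Slc2a1, Slc16a1 and P4ha1 were past 2-fold lower in addition. Adm stood at 0 CPM in rod-like cells of both libraries against 93.7 and 50.9 CPM in cluster 16. Slc16a3 stood at 8.59 and 6.91 against 9.86 and 11.6 CPM, so its difference was small there. In the contrasts between classes that follow, the median over all genes measured lay between -0.04 and 0.03 in each library, except where it is given.

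Hexokinase 1 (Hk1), which traps glucose in the cell, stood at 169 and 164 CPM in rod-like cells and 14.7 and 21.0 CPM in Müller glia-like cells. The CPM ratio was 11.5 (7.85 to 17.5) in DKO and 7.81 (5.83 to 10.6) in DKO_Skp2het. Enolase 2 (Eno2), the neuronal enolase, stood at 74.9 and 57.6 CPM in rod-like cells against 11.7 and 7.46 CPM in Müller glia-like cells. In both libraries the rod-like level of either gene was above every Müller glia-like level. Enolase 1 (Eno1), which makes phosphoenolpyruvate in most tissues, had the opposite order: 172 and 203 CPM in rod-like cells, and 1328 and 1828 CPM in Müller glia-like cells. It was higher still in cluster 16, at 2885 CPM (2656 to 3129) and 4034 CPM (3847 to 4228).

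Aldolase C (Aldoc), the aldolase of brain glia, stood at 27.3 and 23.8 CPM in rod-like cells and 177 and 184 CPM in Müller glia-like cells, a ratio of 0.154 (0.106 to 0.218) and 0.129 (0.0870 to 0.186). Triose phosphate isomerase (Tpi1), which interconverts the products of aldolase, stood at 194 and 174 against 619 and 556 CPM. Phosphoglycerate mutase (Pgam1), the step before enolase, stood at 263 and 283 against 644 and 583 CPM. Phosphofructokinase P (Pfkp), an isoform of the committed step, stood at 28.9 and 18.4 against 86.7 and 80.6 CPM. All 4 were past 2-fold lower in rod-like cells in both libraries. The liver phosphofructokinase Pfkl missed that limit, at 44.5 and 33.8 against 70.0 and 68.2 CPM. Lactate dehydrogenase A (Ldha) missed the 2-fold limit: it stood at 1262 and 1350 CPM in rod-like cells and 723 and 806 CPM in Müller glia-like cells, a ratio of 1.75 (1.63 to 1.88) and 1.68 (1.57 to 1.78). Lactate dehydrogenase B (Ldhb), the form that favours the use of lactate, was lower in rod-like cells, at 80.4 and 80.6 against 244 and 266 CPM.

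**Figure D2:**
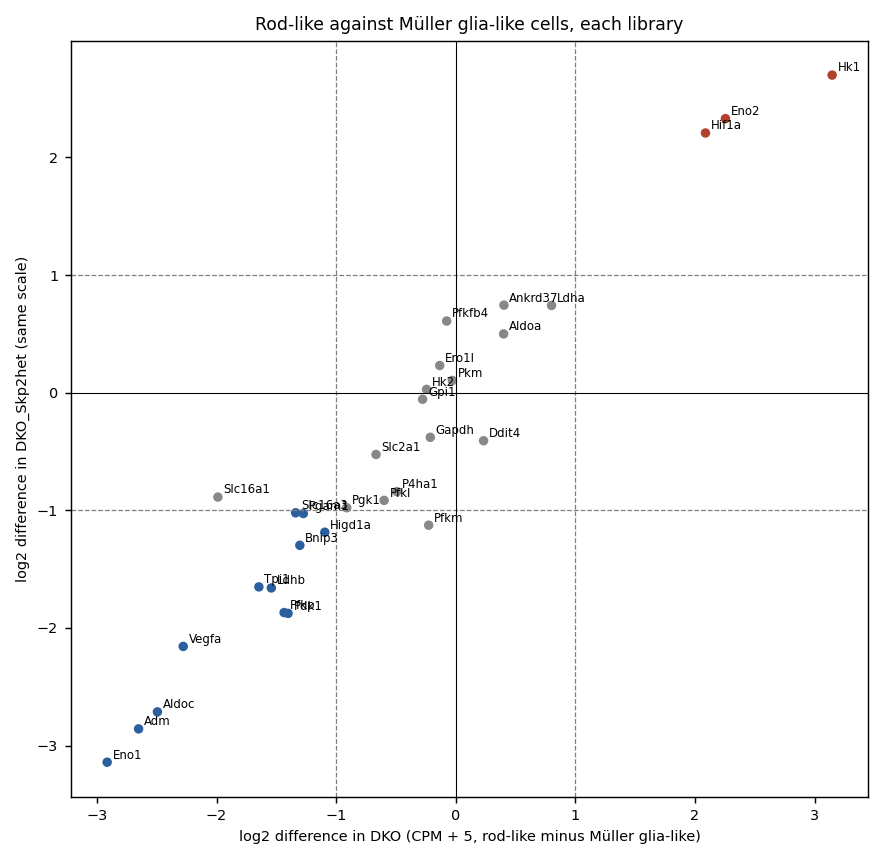
Log2 difference of CPM plus 5 between rod-like and Müller glia-like cells in DKO (horizontal) and DKO_Skp2het (vertical) for the 31 members measured in this contrast. Red points are past 2-fold higher and blue points past 2-fold lower in rod-like cells in both libraries, and dashed lines mark 2-fold. Hk1, Eno2 and Hif1a lie at the upper right, and Eno1, Adm, Aldoc and Vegfa lie farthest to the lower left.

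Outside the enzymes, the lactate exporter Slc16a3 stood at 8.59 and 6.91 CPM in rod-like cells against 29.4 and 19.2 CPM in Müller glia-like cells. Pdk1, a kinase that blocks pyruvate from entering mitochondria, stood at 11.7 and 7.68 against 39.2 and 41.5 CPM. Both were past 2-fold lower in rod-like cells. The lactate and pyruvate carrier Slc16a1 was at 1.56 CPM in rod-like DKO cells and 14.6 CPM in rod-like DKO_Skp2het cells, so its contrast with Müller glia-like cells (21.1 and 31.3 CPM) was past 2-fold in DKO only. Whether that contrast differed between the libraries was not tested.

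The hypoxia response genes split by class. Hif1a, which encodes the oxygen-regulated subunit of HIF-1, stood at 439 and 399 CPM in rod-like cells and 99.4 and 82.4 CPM in Müller glia-like cells, a ratio of 4.41 (3.75 to 5.21) and 4.84 (4.14 to 5.67). Several members known as HIF targets had the opposite order. Vegfa, the main growth factor of blood vessels, stood at 10.1 and 14.6 CPM in rod-like cells against 68.5 and 82.4 CPM. Adm, which encodes the vessel-dilating peptide adrenomedullin, had no UMI in rod-like cells of either library and stood at 26.4 and 31.3 CPM in Müller glia-like cells. Against a limit of 3 UMIs over each library's rod-like cells it was at least 11.3-fold and at least 13.6-fold lower there. Bnip3, a receptor for the removal of mitochondria, stood at 74.9 and 54.5 against 192 and 141 CPM, and Higd1a, a mitochondrial protein that acts on the respiratory chain, stood at 256 and 234 against 553 and 539 CPM. Rod-like cells thus had more Hif1a transcript and less of these 4 genes than Müller glia-like cells. Not all HIF targets had that order: Ankrd37, a small ankyrin repeat protein, stood at 35.9 and 54.5 CPM in rod-like against 25.9 and 30.5 CPM in Müller glia-like cells, and Ldha was higher in rod-like cells as given above. With every cell thinned to 1500 UMIs, Vegfa, Adm, Bnip3 and Higd1a were no longer counted past 2-fold lower in rod-like cells. Hif1a was still past 2-fold higher. HIF-1α is controlled mainly after translation, and these data hold no protein. The oxidase Ero1l, which helps proteins fold, was level across both, at 15.6 and 19.2 CPM against 17.6 and 15.6 CPM.

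Bipolar- and amacrine-like cells, 2 kinds of inner retinal neuron, had more Hk1 and Eno2 than Müller glia-like cells, as rod-like cells did. Their Hk1 level was below that of rod-like cells (169 and 164 CPM), at 81.4 and 75.0 CPM in bipolar-like and 64.5 and 84.0 CPM in amacrine-like cells. Against Müller glia-like cells, 6 of 32 measured members were past 2-fold higher in bipolar-like cells (Hk1, Gpi1, Eno2, Slc2a3, Hif1a and Ankrd37) and 6 lower (Aldoc, Eno1, Ldhb, Slc2a1, Slc16a1 and Adm), where 10.0% and 13.2% of all genes were. The median log2 difference of the members was 0.29 in DKO and 0.14 in DKO_Skp2het. In amacrine-like cells 3 of 32 were higher (Hk1, Eno2 and Slc2a3) and 6 lower (Hk2, Aldoc, Eno1, Slc2a1, Vegfa and Adm), where 13.9% and 13.1% of all genes were, with medians of -0.45 and -0.44. These contrasts and the rod-like one share the same Müller glia-like cells. Dissociation genes moved with both, at 1664 and 1421 CPM in bipolar-like and 2272 and 2242 CPM in amacrine-like cells, and 13 and 10 of 13 measured were past 2-fold lower than in Müller glia-like cells. Their part was not tested. Against cluster 16 alone, 7 of 27 measured members were higher and 5 lower in bipolar-like cells, with Slc16a3 among the higher. In amacrine-like cells 4 of 26 were higher, again with Slc16a3, and 8 lower. Shares of all genes were not taken for these contrasts. The glucose transporter of neurons, Slc2a3 (GLUT3), stood at 29.1 and 32.1 CPM in bipolar-like cells and 30.8 and 34.1 CPM in amacrine-like cells, but at 3.12 and 3.07 CPM in rod-like and 4.90 and 2.84 CPM in Müller glia-like cells. The transporter of barriers and glia, Slc2a1 (GLUT1), was low in amacrine-like cells, at 7.47 and 18.3 CPM, against 36.7 and 53.0 CPM in rod-like and 61.2 and 78.5 CPM in Müller glia-like cells.

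Glucose-6-phosphate isomerase (Gpi1), the second step of the pathway, was high in bipolar-like cells at 374 and 476 CPM, against 131 and 143 CPM in Müller glia-like cells. Ankrd37 stood at 212 and 253 CPM in bipolar-like cells against 25.9 and 30.5 CPM in Müller glia-like cells, a ratio of 8.16 (5.98 to 11.3) and 8.30 (6.43 to 10.8). It was highest in bipolar-like cells among the 10 named classes in both libraries. Other genes of the same response differed in their order. Bnip3 stood at 223 and 221 CPM in bipolar-like cells against 192 and 141 CPM in Müller glia-like cells, while Vegfa stood at 36.0 and 33.3 CPM and Adm at 1.16 and 0 CPM, below Müller glia-like cells. The 11 hypoxia response genes summed to 1309 and 1306 CPM in bipolar-like and 1072 and 1039 CPM in Müller glia-like cells.

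Set directly against rod-like cells, amacrine-like cells had 5 of 28 measured members past 2-fold higher (Pfkm, Tpi1, Pgam1, Slc2a3 and Slc16a3) and 4 lower (Hk2, Ldha, Slc2a1 and Hif1a), where 13.9% and 9.74% of all genes were, with medians of 0.40 and 0.44. Ldha stood at 332 and 422 CPM in amacrine-like cells against 1262 and 1350 CPM in rod-like cells, a ratio of 0.263 (0.234 to 0.295) and 0.313 (0.278 to 0.351). The muscle phosphofructokinase Pfkm stood at 41.1 and 34.1 against 10.1 and 4.61 CPM.

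The isoform pairs lie at Hk1 chr10:62268855-62379908 and Hk2 chr6:82725025-82774454, Aldoa chr7:126795234-126800751 and Aldoc chr11:78322968-78327781, Eno1 chr4:150236721-150248879 and Eno2 chr6:124760053-124769673, and Ldha chr7:46841475-46855627 and Ldhb chr6:142490249-142507957 (whole genes, GRCm38). Each pair does 1 step of the pathway, and its split differed between classes. Eno2 made up 30.4% (25.4 to 35.8) and 22.1% (17.8 to 26.9) of Eno1 and Eno2 UMIs in rod-like cells, but 0.877% (0.563 to 1.30) and 0.406% (0.252 to 0.620) in Müller glia-like cells. The share was 35.2% and 28.4% in amacrine-like cells, 18.8% and 18% in bipolar-like cells and 50.0% and 38.0% in cone-like cells. These 4 neuronal classes thus had Eno2 shares of about 18% or more, while immature neuron-like cells had 6.57% and 7.28%. Neurogenic precursor-like and progenitor-like cells were at 2.30% or less.

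The aldolase share had the opposite order, with the larger values in glia. Aldoc made up 27.0% (24.6 to 29.4) and 26.1% (24.2 to 28.1) of Aldoa and Aldoc UMIs in Müller glia-like cells, and 37.0% and 31.9% in cluster 16 alone. It reached 60.1% and 63.9% in the 18 and 18 astrocyte-like cells and was 4.13% and 3.13% in rod-like cells. Of 244 and 278 aldolase UMIs in microglia-like cells none came from Aldoc, which allows a share of up to 1.5% and 1.32% by the exact interval.

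For hexokinase, Hk2, the inducible form that binds mitochondria, made up 97.3% (90.6 to 99.7) and 92.2% (82.7 to 97.4) of Hk1 and Hk2 UMIs in microglia-like cells. Rod-like cells had 10.7% (7.11 to 15.3) and 11.2% (7.55 to 15.9), and amacrine-like cells 9.21% and 5.48%. Cone-like cells had a larger Hk2 share, 27.5% (20.5 to 35.4) and 30.6% (23.3 to 38.7), at 78.8 and 77.2 CPM of Hk2 against 20.3 and 20.7 CPM in rod-like cells. The share was 74.0% and 83.9% in neurogenic precursor-like cells, on only 50 and 31 UMIs of the pair, and 48.6% and 41.8% in progenitor-like cells, on 72 and 67 UMIs. Müller glia-like cells had 63.0% (51.5 to 73.4) and 49.1% (39.7 to 58.6), and cluster 16 held only 5 and 16 UMIs of the pair.

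For lactate dehydrogenase, Ldhb was a small share in photoreceptors, 5.99% (4.91 to 7.22) and 5.64% (4.63 to 6.78) in rod-like and 4.15% and 4.20% in cone-like cells. It was 25.2% and 24.8% in Müller glia-like cells (30.3% and 25.8% in cluster 16), 27.1% and 29.6% in amacrine-like cells and 42.2% and 40.6% in microglia-like cells. Immature neuron-like cells differed between the libraries, with 37.9% (35.5 to 40.3) in DKO and 46.2% (43.6 to 48.7) in DKO_Skp2het. Dividing cells made up 26.1% and 11.5% of that class, and the part of this shift was not tested. The liver pyruvate kinase Pklr had no UMI beside 11366 and 13673 UMIs of Pkm. The M1 and M2 forms of Pkm come from 1 gene by splicing and share its row, so they cannot be told apart in these counts.

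**Figure D3:**
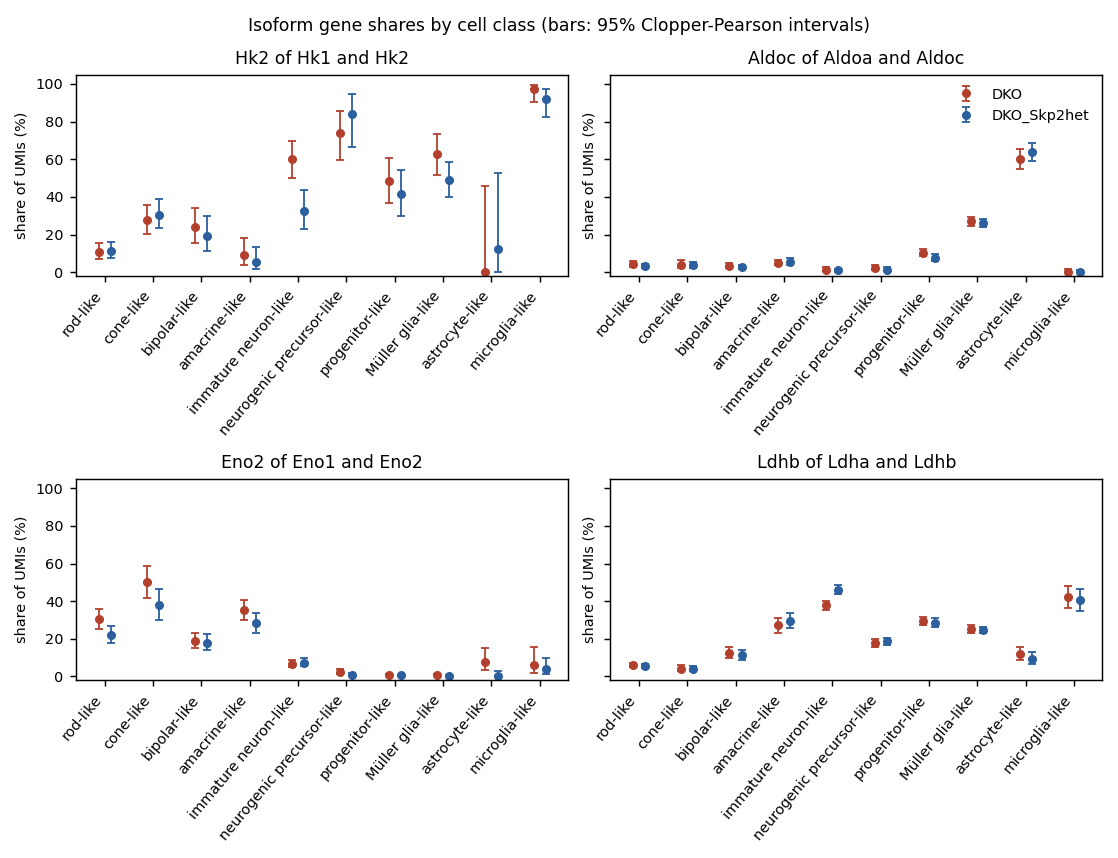
Share of UMIs (percent) from Hk2, Aldoc, Eno2 and Ldhb within their pair of genes in 10 cell classes, for DKO (red) and DKO_Skp2het (blue), with 95% Clopper-Pearson intervals. Eno2 is highest in cone-, amacrine- and rod-like cells, Aldoc in astrocyte- and Müller glia-like cells and Hk2 in microglia-like cells, and Ldhb is lowest in the photoreceptor classes.

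Smaller classes give levels only. Astrocyte-like cells had the highest Vegfa of the 10 classes, 328 and 339 CPM, the highest Ldha, 1460 and 1777 CPM, and the highest Slc2a1, 318 and 220 CPM. In DKO_Skp2het these 18 cells also held 4117 CPM of erythrocyte markers, against 9.64 CPM in DKO. Only 3 of 5 astrocyte markers were past 2-fold in either library, and Aldh1l1 and Pla2g7 had no UMI in DKO_Skp2het. Müller glia markers summed to 9794 and 8549 CPM in astrocyte-like cells, 5998 and 6859 CPM in Müller glia-like and 11630 and 12831 CPM in microglia-like cells. Dissociation genes summed to 16151 and 14198 CPM in astrocyte-like cells, and their part was not tested. Microglia-like cells (31 and 41) were highest for the oxygen sensor Egln3 at 95.9 and 44.7 CPM, for Pfkfb3, whose product activates phosphofructokinase, at 74.6 and 115 CPM, and for P4ha1, which hydroxylates collagen, at 124 and 95.7 CPM. Pfkfb4, a relative of Pfkfb3, never passed 21.3 CPM in a named class. Car9, the carbonic anhydrase often used as a hypoxia marker, had 26 and 30 UMIs in all kept cells.

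Progenitor-like cells (499 and 446) and neurogenic precursor-like cells (365 and 448), nearly all of them dividing, differed in few members. Aldoc, Eno1 and Adm were past 2-fold higher in progenitor-like cells, 3 of 32 measured, and none was lower, while 4.44% and 3.02% of all genes were, with medians of 0.07 and 0.14. Eno1 stood at 906 and 1019 CPM in progenitor-like cells against 253 and 259 CPM in neurogenic precursor-like cells, a ratio of 3.58 (3.24 to 3.96) and 3.93 (3.58 to 4.32). The dissociation genes moved with this contrast, at 8448 and 8799 CPM against 2726 and 2897 CPM, and their part was not tested.

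Dividing cells as a whole had less of several enzymes than other cells and more of 1 stress gene. Of 35 members, 6 were past 1.5-fold lower in dividing cells in both libraries (Hk1, Gpi1, Pfkm, Aldoa, Aldoc and Eno2) and 1 was higher (Ddit4), where 11.1% and 6.38% of all genes were. The members' median was -0.30 and -0.24, against -0.08 and -0.07 over all genes. Aldoa, the general aldolase, stood at 214 and 270 CPM in dividing cells against 513 and 508 CPM in other cells. With a pseudocount of 1 CPM, 10 were lower and 2 higher, and as plain ratios 11 were lower and 2 higher. Shares of all genes were not taken in these repeats. Class and division moved together: nearly all progenitor-like and neurogenic precursor-like cells were dividing, against 2.35% and 1.36% of amacrine-like and 9.6% and 3.9% of bipolar-like cells. Within Müller glia-like cells, which held 26.8% and 24.4% dividing cells, 1 of 29 measured members was past 1.5-fold lower in dividing cells, Slc2a1, and none was higher, where 1.13% and 1.88% of all genes were. There Slc2a1 stood at 35.6 and 52.2 CPM against 70.9 and 87.6 CPM. Eno1 stood at 999.6 and 1393 CPM in dividing against 1453 and 1979 CPM in other Müller glia-like cells, a ratio of 0.688 (0.626 to 0.755) and 0.704 (0.656 to 0.754), short of the limit. Dissociation genes were at 7356 and 7821 CPM in dividing against 10140 and 10891 CPM in other Müller glia-like cells, and their part was not tested.

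Ddit4, which encodes an inhibitor of mTORC1 and answers hypoxia and other stresses, stood at 66.0 and 86.4 CPM in dividing cells against 37.4 and 42.3 CPM in other cells. Unnamed cluster 12 carried this call: without it dividing cells stood at 47.7 and 59.7 CPM, a ratio of 1.28 (1.12 to 1.46) and 1.41 (1.26 to 1.59), and no member was past 1.5-fold higher. Of the 6 lower members Pfkm then missed the limit and Ankrd37 passed it. Ddit4 was highest, among the populations plotted, in that cluster, which was singled out after its values were seen. It held 102 and 103 cells, all of them dividing, led by Txnip and Myc. Ddit4 was at 264 CPM (235 to 294) and 453 CPM (407 to 503) there, against no more than 61.8 CPM in any of the 10 named classes. Ankrd37 was at 147 and 213 CPM, Adm at 39.0 and 58.2 CPM and Ldha at 1437 and 1305 CPM. Eno1, at 89.8 and 120 CPM, Aldoa, at 96.6 and 128 CPM, and Bnip3, at 48.3 and 54.3 CPM, were low in the same cells. Mitochondrial UMIs were 1.81% and 1.73% in the cluster against 3.33% and 3.52% over all kept cells. Txnip and Myc were also among the leading genes of cluster 25 (24 and 27 cells). That cluster was pooled into immature neuron-like cells, and its own Ddit4 level was not taken. In the unnamed cluster 30, with 8 and 12 cells, Bnip3 was among the leading genes at 1040 and 273 CPM.

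**Figure D4:**
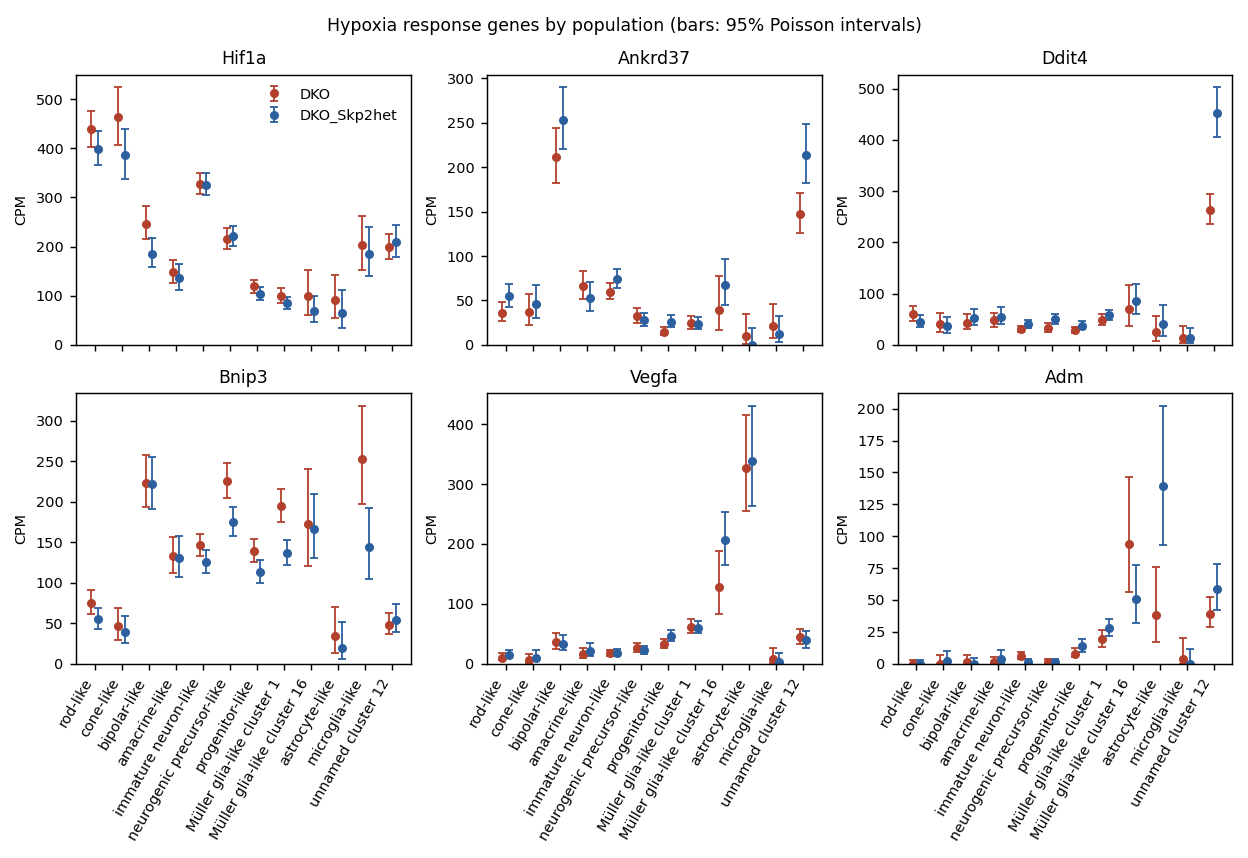
Level in CPM of Hif1a, Ankrd37, Ddit4, Bnip3, Vegfa and Adm in named classes, in the 2 Müller glia-like clusters and in the unnamed cluster 12, for DKO (red) and DKO_Skp2het (blue), with 95% Poisson intervals. Hif1a is highest in rod- and cone-like cells, Ankrd37 in bipolar-like cells and cluster 12, Ddit4 in cluster 12, and Vegfa in astrocyte-like cells and then Müller glia-like cluster 16.

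Between the genotypes the members differed little. Over all kept cells none of the 35 was past 1.5-fold higher or lower in DKO_Skp2het, and neither were many genes: 0.438% and 0.215% of the 13466 measured. On the log2 scale 26 members were above 0 and 9 below, where 56.0% of all genes measured were above 0. Their median was 0.08 against 0.02 over all genes. The pseudocount decides the count for 2 members of low level, which were past 1.5-fold as plain CPM ratios. The carrier Slc16a1 stood at 7.80 and 12.7 CPM, a ratio of 1.63 (1.36 to 1.98), and the prolyl hydroxylase Egln3 at 7.71 and 4.67 CPM, a ratio of 0.605 (0.474 to 0.771).

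Eno1 had the largest log2 difference of CPM plus 5, ahead of Slc16a1 and Egln3, which differed more as plain ratios. It stood at 420 CPM in DKO and 596 CPM in DKO_Skp2het, a ratio of 1.42 (1.38 to 1.45). The ratio was 1.38 (1.31 to 1.44) in Müller glia-like cells, but 1.12 (1.06 to 1.19) in progenitor-like, 1.02 (0.903 to 1.16) in neurogenic precursor-like and 0.899 (0.767 to 1.05) in bipolar-like cells. The difference of the ratios between classes was not tested. Cell make-up moved with it: Müller glia-like cells and the unnamed cluster 0, where Eno1 was at 777 and 822 CPM, held 640 and 775 DKO_Skp2het cells but 436 and 234 DKO cells. The share of this make-up in the ratio was not tested.

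Other abundant enzymes stood slightly higher in DKO_Skp2het over all kept cells: Gapdh with a ratio of 1.15 (1.13 to 1.16), Aldoa with 1.18 (1.14 to 1.21) and Pkm with 1.18 (1.15 to 1.21). Ldha, with 1.04 (1.01 to 1.06), was nearer to 1. Hif1a was lower, at 217 and 184 CPM, a ratio of 0.848 (0.814 to 0.883), and 0.829 (0.782 to 0.879) in dividing cells. It was 0.994 (0.905 to 1.09) in immature neuron-like cells. Dissociation genes also stood higher in DKO_Skp2het over all cells, with a median log2 difference of 0.23, and their part was not tested. The median log2 difference of the 17 enzymes was 0.13 in dividing cells and -0.01 in other cells, against 0.03 and 0.01 over all genes. Dividing cells made up 55.8% of DKO and 43.7% of DKO_Skp2het cells, and the part of that shift was not tested either.

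**Figure D5:**
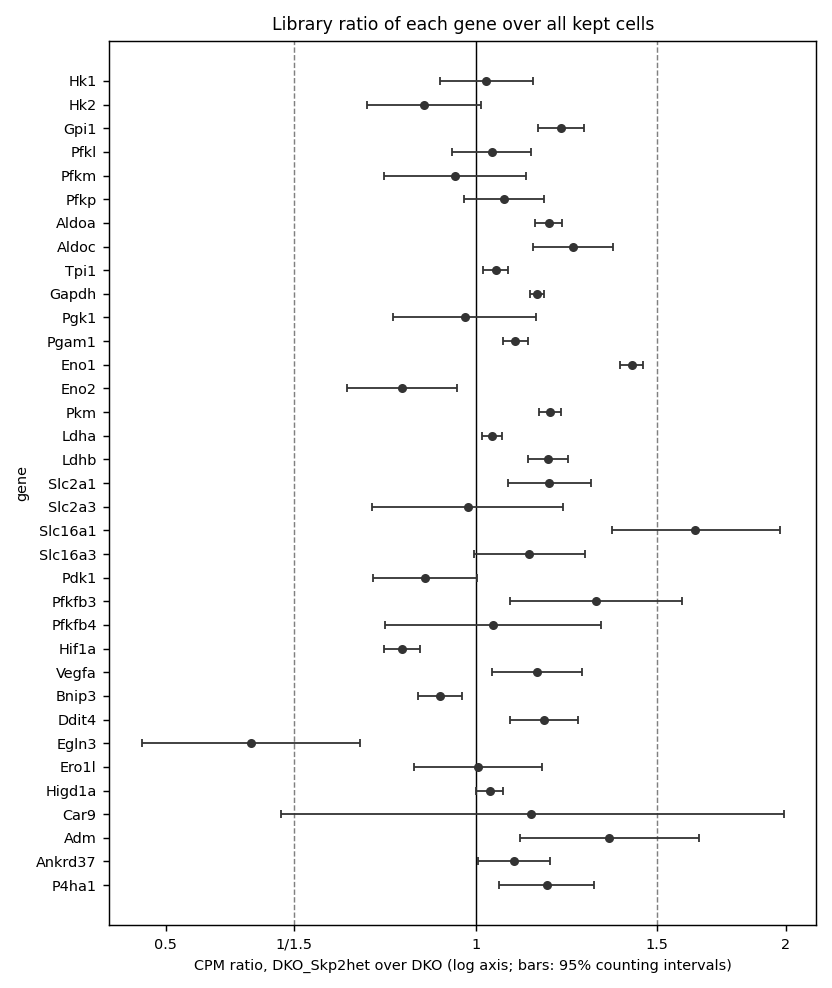
CPM ratio of DKO_Skp2het over DKO for each of the 35 genes over all kept cells, on a log axis with 95% counting intervals. Dashed lines mark 1.5-fold, and 2 genes, Slc16a1 at 1.63 and Egln3 at 0.605, lie beyond them as plain ratios.

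Within most classes few members passed 1.5-fold. In dividing cells none of 34 passed, where 0.681% of all genes were higher and 0.781% lower, and the median was 0.13 against 0.03 over all genes. In rod-like cells none of 22 passed (1.71% and 2.25% of all genes), with a median of 0.01. In amacrine-like cells none of 23 passed (2.69% and 2.29%), nor did any of 23 in neurogenic precursor-like cells (1.51% and 0.753%). In bipolar-like cells P4ha1 was higher, 1 of 23 (3.82% of all genes), and none was lower (5.60%). In Müller glia-like cells P4ha1 was again the 1 of 29 that was higher (1.96%), and none was lower (0.871%).

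Split by division, Müller glia-like cells had more such members, on few UMIs. In dividing Müller glia-like cells 3 of 20 were higher (Pdk1, Ddit4 and P4ha1; 4.55% of all genes) and Aldoc was lower (2.34%). Aldoc stood at 146 and 94.8 CPM there, a ratio of 0.650 (0.465 to 0.906), and Ddit4 at 24.9 and 53.6 CPM, from 14 and 39 UMIs. P4ha1 had 13 and 37 UMIs and Pdk1 18 and 37. In other Müller glia-like cells Slc16a1 and P4ha1 were higher, 2 of 29 (2.56%), and none was lower (1.33%). In other cells as a whole none of 34 was higher (0.479%) and Egln3 was lower (0.694%), at 9.56 and 4.60 CPM. The median of the members there was 0.04 against 0.01 over all genes.

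P4ha1 stood at 28.4 and 49.4 CPM in Müller glia-like cells, a ratio of 1.74 (1.27 to 2.40), and at 26.7 and 47.6 CPM in bipolar-like cells, a ratio of 1.78 (1.04 to 3.11). In progenitor-like cells Ankrd37 was higher, 1 of 27 (1.51% of all genes), at 14.8 and 25.9 CPM, and none was lower (0.956%). In immature neuron-like cells Gpi1 and Slc2a3 were higher, 2 of 29 (1.67%), and Hk2 was lower (1.25%). Dividing cells made up 26.1% of that class in DKO and 11.5% in DKO_Skp2het, and the part of this shift was not tested. Gpi1 stood at 71.7 and 121 CPM there, a ratio of 1.69 (1.42 to 2.02), Slc2a3 at 9.39 and 17.2 CPM and Hk2 at 20.8 and 10.9 CPM. Some of these calls rest on few UMIs: 23 and 40 for P4ha1 in bipolar-like cells and 28 and 44 for Slc2a3.

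Other genes of these pathways, taken from lists fixed alongside the members, were counted in the same way. In rod-like against Müller glia-like cells 2 of 9 measured other glycolysis genes were higher (Pfkfb2 and Eno3) and 3 lower, among them Hkdc1 and Eno1b. Of 23 measured other hypoxia genes 2 were higher and 6 lower. The stress gene Ndrg1 stood at 499 and 504 CPM in rod-like cells against 36.2 and 39.4 CPM, and the orphan nuclear receptor Rora at 262 and 302 against 26.4 and 36.6 CPM. Plod2, which modifies collagen, stood at 3.12 and 5.38 against 33.3 and 32.3 CPM, and the glycogen branching enzyme Gbe1 at 11.7 and 23.8 against 84.2 and 85.6 CPM. Of 27 genes of pyruvate entry and the tricarboxylic acid cycle only Suclg2 and Idh2 passed, both lower, and none of 8 pentose phosphate genes passed, with medians of 0.07 and -0.44 in DKO. In amacrine-like cells Tkt, the transketolase of the pentose phosphate pathway, stood at 327 and 408 CPM against 70.3 and 69.1 CPM in rod-like cells. Between the libraries Pgm2 was the only gene of these 4 lists past 1.5-fold over all kept cells, at 21.8 and 36.9 CPM. It stood at 15.6 and 69.1 CPM in rod-like cells.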

How the data were processed

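The 2 10x 3′ single-cell libraries were analysed, 1 per genotype. The authors deposited raw counts of UMIs for each gene in each barcode, made with Cell Ranger 2.2.0 on build mm10 per the submitters' processing notes. Barcodes needed 500 genes and at most 20% mitochondrial UMIs. The highest-scoring doublets were removed at 0.8% per 1000 barcodes (105 in DKO and 216 in DKO_Skp2het). Counts scaled to 10000 UMIs per cell gave 30 principal components from 2000 variable genes, without cell cycle genes or members. A graph of 15 neighbours was split by leidenalg 0.10.2 (resolution 1). Clusters were named for the type whose markers had the highest mean log2 fold, if that was 1 or more, 3 or more markers were past 2-fold and no other type had as many among the 10 leading genes (or any, where the type itself had none). Dividing cells held 3 or more UMIs of 26 proliferation genes after thinning to 1500 UMIs, and 458 DKO and 777 DKO_Skp2het cells lay at 2 or 3.

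Counts were summed per class and library and given as CPM. Folds compare CPM plus a pseudocount of 5, which understates low genes, while ratios are of plain CPM. Genes needed 50 UMIs over both sides. Contrasts between classes needed the same direction past 2-fold (1.5-fold for dividing cells) in both libraries. Intervals are exact Poisson, exact binomial and Clopper-Pearson, treat UMIs of 1 cell as independent, and cover counting error only. With 1 library per genotype no test across samples was possible. All 35 members are accounted for, members past a fold are named, and of other lists at most 4 genes per comparison. The comparison was run on simulated counts with known folds and counting error only, so it says nothing about variation between cells or mice.

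The members and gene lists were chosen with earlier results of these data known. Coordinates and start sites are on GRCm38, near-identical copies are matches of at least 95% over 120 bases to the last 500 bases of GENCODE transcripts, and the motif search covered 250 bases. The software was scipy 1.17.1 with numpy 2.4.6 under Python 3.11.15, and scikit-learn 1.9.0 for components and neighbours.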

Additional observations from a re-analysis of the deposited data

Results flagged for a closer look

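Pgam1, the phosphoglycerate mutase, stood on opposite sides of 1 in 2 classes when DKO_Skp2het was set over DKO, with both counting intervals clear of 1. The ratio was 1.15 (1.02 to 1.29) in amacrine-like cells and 0.905 (0.841 to 0.974) in Müller glia-like cells. With 1 library per genotype the difference between the classes was not tested.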

How the results depend on the processing

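The analysis was repeated under 15 other settings listed at the start and 3 chosen after seeing the data. No value past its fold changed sign. Among 15 main results, 148 repeats stayed within a set range and 19 did not. That range was the counting interval for shares and 1.5 times the count for counts. For medians it ran between the medians of the members' own lower and upper bounds, which is not an interval of the median itself. Members past 1.5-fold between libraries over all kept cells numbered 0, but 1 with every cell thinned to 1500 UMIs, 2 with a pseudocount of 1 CPM and 2 as plain CPM ratios. Members past 1.5-fold between dividing and other cells numbered 7, but 12 with a pseudocount of 1 CPM, 13 as plain ratios and 6 without cluster 12. The Eno2 share in rod-like DKO cells was 21.5% after thinning, and the same share in Müller glia-like DKO_Skp2het cells 0.186%. With doublets kept, or at resolution 0.5, Müller glia-like cells shrank to 40 DKO cells and 85 or 81 DKO_Skp2het cells, and cluster 16 alone gave 40 and 82. The Aldoc share there was 37.0% in DKO under all 3, and in DKO_Skp2het 32.2%, 32.1% and 31.9%. The Eno2 share there was 0.171% in DKO under all 3, and in DKO_Skp2het 0.222%, 0.230% and 0.229%. Rod-like against Müller glia-like counts ranged from 10 (thinned) to 17 (plain ratio or pseudocount 1), against 15. Shares of all genes were not taken under the other settings. Of repeats for single genes and shares, 9223 stayed within the interval and 799 did not. Some of these could not have moved. The minimums of 20 and 200 UMIs (683 and 473 repeats) leave the value of a gene unchanged. Plain ratios (683) lie inside their own interval, and values with a pseudocount of 1 CPM (683) lie between those and the main value. No paired analysis was possible because each genotype has 1 library. Depth limits low genes such as Car9, Pfkfb4 and Egln3, and in rod-like cells 13 members fell below 50 UMIs in the comparison of libraries.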

Other observations

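Cells that could not be named held further extremes of the same genes, chosen after their values were seen. Unnamed cluster 13, with 73 and 106 cells and mitotic genes such as Cdc20 and Ccnb1 leading, had Eno1 at 1515 CPM (1398 to 1640) in DKO and 1649 CPM (1542 to 1761) in DKO_Skp2het, and Pkm at 887 and 859 CPM. Unnamed cluster 31, with 4 and 9 cells and endothelial genes such as Cldn5 leading, had the glucose transporter Slc2a1 at 389 CPM (262 to 555) and 363 CPM (276 to 469) and the lactate carrier Slc16a1 at 259 and 269 CPM.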
